A study of Homo sapiens with 12 samples.

Results

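The genes described here import cystine and make or break down cysteine. They are the 10 genes SLC7A11, SLC3A2, MAT2A, AHCY, MTR, MTRR, CBS, CTH, CDO1 and MPST, taken by name from the 58735 gene rows of the deposited count tables, and each name had 1 row. RNA-seq was read from KELLY and SK-N-AS, human neuroblastoma cell lines of which KELLY carries MYCN amplification and SK-N-AS does not. Erastin was applied for 24 h, at 1 µM to KELLY and at 2 µM to SK-N-AS, and the control samples of each line received the DMSO vehicle and were taken at 24 h. The 4 groups held 3 samples each, and line and dose cannot be told apart. Both are established lines grown as cultures, the labels describe the triplicates as biological, and each line stands for itself alone. The study's methods describe triplicate seeding in multiwell plates, so the 3 samples of a group may be wells of 1 culture. In that case the errors and p-values below measure the spread of wells and libraries, not of separate experiments.

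Cells take up cystine, the oxidized dimer of cysteine, through system Xc, an exchanger of cystine for glutamate that Erastin inhibits. SLC7A11 is the transport subunit and SLC3A2 the chaperone that carries it to the cell membrane, and SLC3A2 serves other amino acid carriers as well. Cysteine can also be made inside the cell from methionine. In the methionine cycle MAT2A makes S-adenosylmethionine, AHCY hydrolyses S-adenosylhomocysteine to homocysteine, and MTR, kept active by MTRR, turns homocysteine back into methionine. Transsulfuration draws homocysteine out of that cycle, when CBS joins it to serine and CTH splits the cystathionine formed into cysteine. CDO1 oxidizes cysteine and MPST takes sulfur from a product of cysteine. Cysteine limits the synthesis of glutathione, which protects membrane lipids from the peroxidation that marks ferroptosis.

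The libraries held 24169796 to 29835670 counts each. The labels of the lines were checked against markers. MYCN lay between 4520 and 6553 CPM (read counts scaled by library size with TMM factors) in KELLY and at no more than 0.413 CPM in SK-N-AS. All 8 adrenergic neuroblastoma markers had at least 10 counts in every library of both lines, and summed to between 2812 and 6473 CPM in KELLY and between 1107 and 1295 CPM in SK-N-AS. The 8 mesenchymal markers summed to between 2301 and 2617 CPM in SK-N-AS and between 229.7 and 331.4 CPM in KELLY, where 1 of them was at 0. VIM made up most of the SK-N-AS sum, with a mean of 1454 CPM in the controls. TWIST1 did not follow the sum, with a mean of 118 CPM in the controls of both lines. With Erastin its mean was 103 CPM in SK-N-AS and 136 CPM in KELLY. Of 8 blood cell markers, 1 (PTPRC, a surface phosphatase of white cells) had at least 10 counts in every SK-N-AS library and none did in KELLY. The list summed to between 454 and 620.1 CPM in SK-N-AS and between 0.122 and 8.51 CPM in KELLY, and its part in the differences between the lines was not tested. The relation of read abundance to the GC content of genes was not the same in all libraries of a group. Each gene's log2 CPM was taken as its deviation from that gene's mean over all libraries of the line. Spearman's correlation of this deviation with GC content was computed across 12117 genes, which are not independent replicates. A library's value is thus relative to the others of its line. The correlation was -0.84, 0.72 and -0.49 for the 3 KELLY DMSO libraries and 0.88, -0.68 and 0.25 for the 3 with Erastin. In SK-N-AS, across 11961 genes, it was 0.79, 0.24 and -0.77 with DMSO and -0.29, 0.44 and -0.45 with Erastin. These values bear on the members because SLC7A11 is poor in GC (35.4%, percentile 1.9 of coding genes) while CBS (58.7%) and MPST (66.5%) are rich in it.

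RefSeq promoter windows (GRCh38.p14, 250 bases before to 50 after each transcript start) were matched by symbol for 7 of the 10 genes, with 14 windows in all. The entries searched were those of SLC3A2, MAT2A, AHCY, MTR, CBS, CTH and CDO1. On both strands the windows were searched for TGATGNAAN, the C/EBP-ATF response element (CARE) bound by ATF4 with C/EBP partners, and for TGACNNNGC, the antioxidant response element (ARE) bound by NRF2. The motifs do not overlap each other in the matches found. Upstream of a start, the ARE letters were present in 1 window of SLC3A2 and 1 window of CBS. Of 35116 windows in the table, 10.9% held the ARE and 3.13% the CARE within the 250 upstream bases. The CARE letters occurred in no upstream part of these 14 windows, and in 1 place downstream of a start, as CTTACATCA on the minus strand of the same SLC3A2 window, from base 36 after the first transcribed base. Over the full windows 13.3% of all entries held the ARE and 3.61% the CARE. The upstream bases of both matching windows are shown because SLC3A2 and CBS are members that passed the test in SK-N-AS below. Capitals mark the ARE letters, which begin 37 bases before the SLC3A2 start and 83 bases before the CBS start. The SLC3A2 bases lie on the plus strand at chr11:62881449-62881698, within longer SLC3A2 transcripts. The CBS bases lie on the minus strand at chr21:43076378-43076627, also within the bounds of their gene (chr21:43053191-43076943). A match is a description of letters and no measure of binding.
SLC3A2: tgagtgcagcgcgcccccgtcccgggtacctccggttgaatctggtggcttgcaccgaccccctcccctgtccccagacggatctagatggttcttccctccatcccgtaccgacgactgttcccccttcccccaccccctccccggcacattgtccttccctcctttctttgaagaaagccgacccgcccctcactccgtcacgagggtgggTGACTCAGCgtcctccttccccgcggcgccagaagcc
CBS: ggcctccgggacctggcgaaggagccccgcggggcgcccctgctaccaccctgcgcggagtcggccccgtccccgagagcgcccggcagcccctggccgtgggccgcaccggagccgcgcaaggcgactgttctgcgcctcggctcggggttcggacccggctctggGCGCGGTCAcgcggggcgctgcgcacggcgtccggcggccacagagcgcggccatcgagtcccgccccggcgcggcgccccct

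SLC7A11 (chr4:138164097-138242349, minus strand, in GRCh38) was higher with Erastin in both lines. In SK-N-AS it stood at 48.2, 53.0 and 59.3 CPM in the DMSO samples and at 189, 226 and 225 CPM with Erastin. All 3 treated samples lay above all 3 controls. The log2 fold change was 2.01 (SE 0.11, 95% interval 1.78 to 2.24), a 4.02-fold rise, with a Benjamini-Hochberg adjusted p of 1.55e-06 from the quasi-likelihood test of edgeR. By p it ranked 2 among the 16095 genes tested in that line. In KELLY it stood at 31.8, 16.9 and 21.9 CPM with DMSO and at 60.2, 137 and 110.4 CPM with Erastin. The groups did not overlap, and replicate 1 was the highest of the controls and the lowest of the treated samples. The KELLY log2 fold change was 2.12 (SE 0.35, 95% interval 1.31 to 2.94), with an unadjusted p of 0.000357 and an adjusted p of 0.41 from edgeR, which did not pass. With DESeq2 the adjusted p was 5.13e-07 at the same fold change.

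The GC trend moved with the KELLY values of SLC7A11. KELLY DMSO replicate 1, the highest control, was the library leaning most to GC-poor genes, and KELLY Erastin replicate 1, the lowest treated sample, leaned most to GC-rich genes. With each library's trend removed the KELLY values were 21.5, 19.3 and 20.5 CPM with DMSO and 99.7, 121 and 111 CPM with Erastin. The coefficient of variation fell from 32.8% to 5.35% in the controls and from 37.7% to 9.82% in the treated samples. With that, the log2 fold change was 2.44 (SE 0.10), with an adjusted p of 1.89e-05 from edgeR. In SK-N-AS the corrected log2 fold change was 2.01, with an adjusted p of 1.72e-10 from edgeR. Over the 9 members other than CDO1, the median coefficient of variation went from 13.4% to 6.60% in the KELLY controls, falling for 7 of them, and from 18.5% to 7.38% in the treated KELLY samples, falling for 8. CBS and MTR in the controls and MPST in the treated samples were the exceptions. In SK-N-AS the median went from 7.24% to 5.725% in the controls and from 5.91% to 3.36% with Erastin. There the coefficient fell for 6 of the 9 in each group. The exceptions were CBS, CTH and MPST in the controls and SLC7A11, CBS and CTH with Erastin. That of SLC7A11 rose from 9.6% to 12.8% with Erastin, and that of CBS from 9.1% to 22.8% in the controls. SLC7A11 shares 865 exonic bases with SLC7A11-AS1 on the opposite strand, and the strand setting of the counting is not given in the sources used here. The antisense gene held 0.131% to 0.727% of the counts of both genes in every library.

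SLC3A2 (chr11:62856004-62888880, plus strand) was the other subunit that rose in SK-N-AS. Its CPM was 88.6, 81.5 and 60.1 with DMSO and 141, 183 and 149 with Erastin, with no overlap. Its log2 fold change was 1.05 (SE 0.14, 95% interval 0.74 to 1.35) and the adjusted p 0.00289 from edgeR. The adjusted p was 0.0641 when all 12 samples were put in 1 fit. In KELLY its CPM was 109.7, 142 and 112 with DMSO and 296, 184 and 233 with Erastin. Again the groups were apart, and the log2 fold change was 0.97 (SE 0.21, 95% interval 0.49 to 1.46) with an adjusted p of 0.77 from edgeR. DESeq2 gave an adjusted p of 0.0497. With the GC trend removed the difference was 0.69 (SE 0.11, adjusted p 0.0568 from edgeR), and Erastin replicate 1 moved from 300.5 to 218 CPM on the scale of that line.

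The balance of counts between the subunits was read within each library. In SK-N-AS the ratio of SLC7A11 to SLC3A2 counts was 0.544, 0.651 and 0.987 with DMSO and 1.34, 1.23 and 1.52 with Erastin, so that the groups did not overlap. In KELLY it was 0.290, 0.119 and 0.196 with DMSO and 0.204, 0.744 and 0.474 with Erastin, and the groups overlapped through Erastin replicate 1. The 2 transcripts differ in GC content (35.4% and 57.8%), and the part of each library's GC trend in these ratios was not tested. Per kilobase of the canonical transcript of each gene SLC3A2 was the more abundant in every group. In SK-N-AS with Erastin it had 83.7 ± 12.0 against 22.1 ± 2.18 CPM per kilobase (SD, n = 3). That gap depends on the length used. All exons of SLC3A2 cover 6392 bases and this transcript 1885, while SLC7A11 has 9645 by both. Levels by exon length were not computed.

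**Figure D1:**
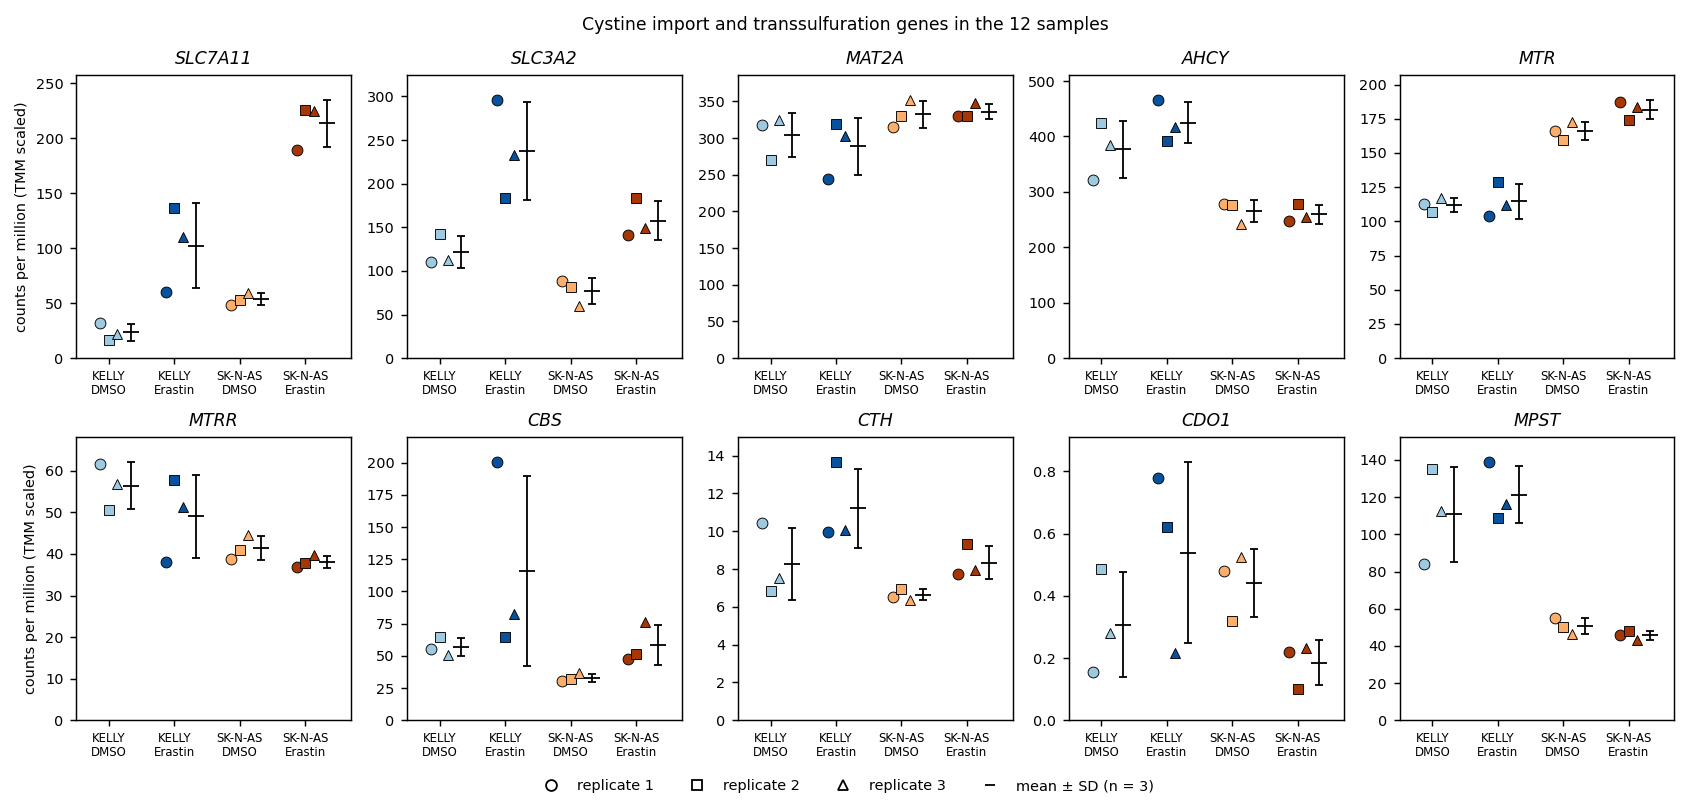
CPM, scaled by TMM over all 12 libraries, of the 10 genes by group, with 1 marker shape per replicate number and the mean ± SD (n = 3) beside the points. SLC7A11 and SLC3A2 lay higher with Erastin in both lines with no overlap, and the CBS value of KELLY Erastin replicate 1 (200.1 CPM) stood above the other 2 treated samples (65.0 and 82.3 CPM).

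CBS (chr21:43053191-43076943, minus strand), the enzyme at the entry of transsulfuration, rose in SK-N-AS. It had 30.8, 31.9 and 36.4 CPM with DMSO and 47.9, 51.3 and 76.2 CPM with Erastin. The groups did not overlap, and Erastin replicate 3 was the highest. Its log2 fold change was 0.83 (SE 0.16, 95% interval 0.49 to 1.18) and the adjusted p 0.0342 from edgeR. This call was lost without DMSO replicate 1 (adjusted p 0.0614), without DMSO replicate 2 (0.269), without Erastin replicate 3 (log2 fold change 0.59, adjusted p 0.0726) and with all 12 samples in 1 edgeR fit (adjusted p 1). With the GC trend removed it was 0.84, with an adjusted p of 0.0056 from edgeR.

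In KELLY the CBS counts differed most between treated samples. They were 55.5, 64.3 and 50.7 CPM with DMSO and 200.1, 65.0 and 82.3 CPM with Erastin. Replicate 1 stood alone, and replicate 2 exceeded the highest control by less than 1 CPM. This gave a log2 fold change of 1.03 (SE 0.40, 95% interval 0.10 to 1.96, adjusted p 0.77 from edgeR). Without KELLY Erastin replicate 1 it was 0.37. With the GC trend removed that library was still the highest, at 143 CPM against 72.1 and 79.8 CPM, and the controls (80.9, 57.1 and 54.0 CPM) then overlapped the treated samples. CBS has a near-identical copy on the same chromosome, CBSL, which the tables list separately, so that reads could be split between them. CBSL held 1.16% to 8.82% of the counts of both names. With both summed, the log2 fold change in SK-N-AS was 0.81 (adjusted p 0.0257 from edgeR). Summing does not restore reads left uncounted.

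CTH (chr1:70411218-70439851, plus strand), which releases cysteine from cystathionine, did not pass in either line. In SK-N-AS it had 6.55, 6.95 and 6.39 CPM with DMSO and 7.74, 9.32 and 7.95 CPM with Erastin. Each treated sample lay above each control. The log2 fold change was 0.34 (SE 0.13, 95% interval 0.05 to 0.63), with an unadjusted p of 0.0236 and an adjusted p of 0.443 from edgeR. In KELLY it had 10.5, 6.86 and 7.55 CPM with DMSO and 9.96, 13.6 and 10.1 CPM with Erastin, and the groups overlapped through DMSO replicate 1. Its KELLY log2 fold change was 0.44 (SE 0.23, adjusted p 0.77 from edgeR), and 0.58 (adjusted p 0.433 from edgeR) with the GC trend removed.

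**Figure D2:**
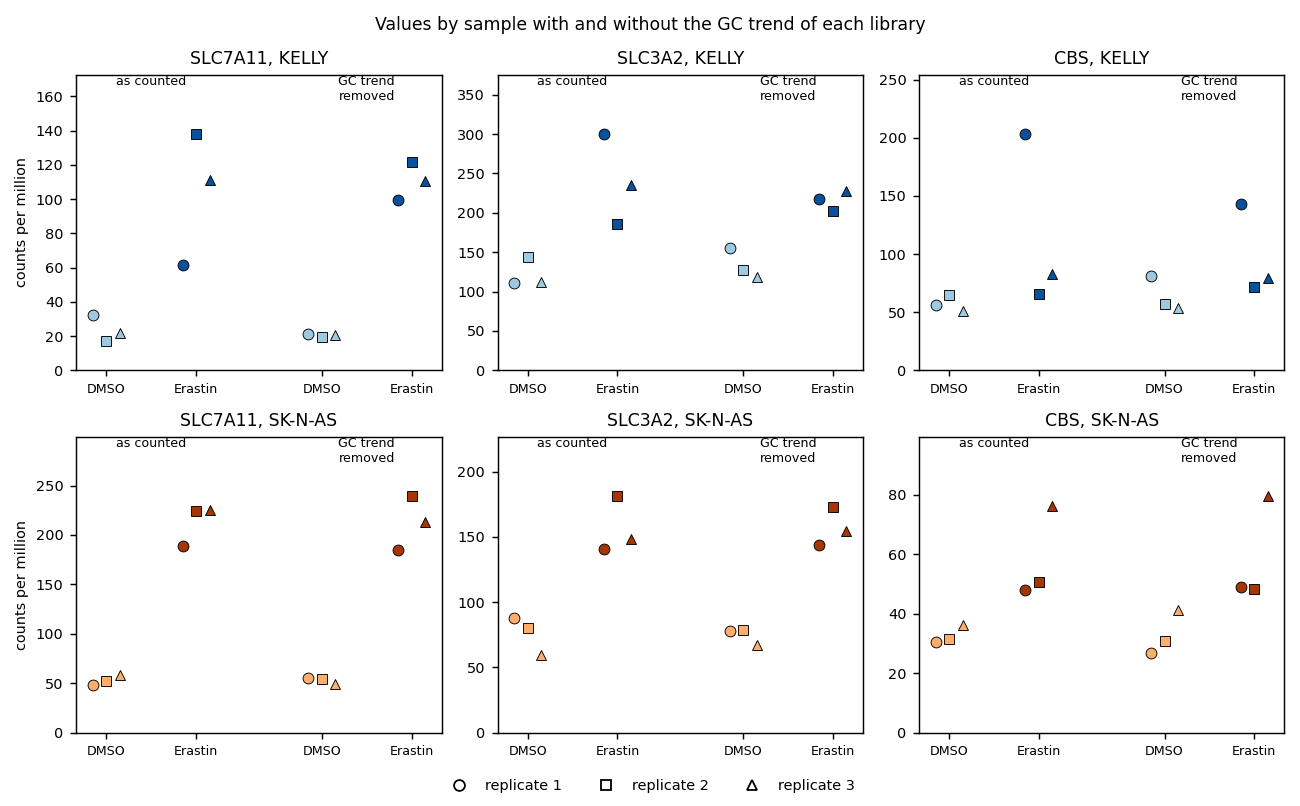
CPM of SLC7A11, SLC3A2 and CBS in each library, on the TMM scale of its own line, as counted (left of each panel) and after removal of each library's loess trend on GC content (right of each panel), with KELLY above and SK-N-AS below. The KELLY points of SLC7A11 drew together (controls 19.3 to 21.5 CPM, treated 99.7 to 121 CPM), and KELLY Erastin replicate 1 remained the highest for CBS at 143 CPM.

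The 4 enzymes of the methionine cycle did not pass the adjusted threshold with Erastin in either line. The log2 fold change of MAT2A (chr2:85539168-85545281) was -0.07 in KELLY (95% interval -0.43 to 0.28) and 0.03 in SK-N-AS (-0.14 to 0.19). AHCY (chr20:34280268-34311802) had 0.18 (-0.18 to 0.53) and -0.02 (-0.21 to 0.16). MTRR (chr5:7851186-7906025) had -0.20 (-0.65 to 0.25) and -0.11 (-0.32 to 0.10). These intervals include 0, and in SK-N-AS none of the 3 reached further from 0 than -0.32. MTR (chr1:236795260-236921278), methionine synthase, had 166, 160 and 173 CPM in the SK-N-AS controls and 187, 174 and 184 CPM with Erastin. Its groups in SK-N-AS did not overlap, at a log2 fold change of 0.14 (SE 0.08, adjusted p 0.699 from edgeR), and in KELLY it had 0.04 (95% interval -0.30 to 0.37). With the replicate number as a block and the GC trend removed, MTR passed in SK-N-AS at 0.13 (SE 0.04, adjusted p 0.0311 from edgeR), as did 11.6% of all genes in that fit. MAT2A shares 562 exonic bases with GGCX and MTRR 100 with FASTKD3, both on the opposite strand.

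The cysteine-consuming members did not pass either. MPST (chr22:37019635-37029821), which transfers sulfur from 3-mercaptopyruvate, showed 0.14 on the log2 scale in KELLY (95% interval -0.34 to 0.61) and -0.14 in SK-N-AS (-0.35 to 0.08). In KELLY it was -0.28 with the GC trend removed (adjusted p 0.679 from edgeR). CDO1 (chr5:115804733-115816659), cysteine dioxygenase, was close to the limit of detection, with 3 to 19 counts per library. In SK-N-AS its counts were 13, 8 and 14 under DMSO against 6, 3 and 6 under Erastin, and it was left out of the main test by the filter on low counts. The treated samples all lay below the controls, and without the filter the log2 fold change was -1.23 (SE 0.61, adjusted p 0.738 from edgeR). In KELLY its counts were 4, 12 and 8 under DMSO against 19, 16 and 6 under Erastin, at a log2 fold change of 0.80 (SE 0.62, adjusted p 0.77 from edgeR), and the groups overlapped.

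Counted over the members, 3 of the 9 tested in SK-N-AS passed an adjusted p under 0.05, all higher with Erastin (SLC7A11, SLC3A2 and CBS) and none lower. Over all genes tested in that line 0.659% passed, 0.46% higher and 0.199% lower. With the GC trend removed 7.03% of all genes passed in SK-N-AS and 0.203% in KELLY. The study's methods set another threshold, a 1.5-fold change at an p-value up to 0.05, for DESeq2 on protein-coding genes. Applied here to unadjusted p-values from edgeR over all genes tested, it was passed by the same 3 as higher, against 1.34% of all genes. The groups did not overlap for 5 of the 9 (the same 3 with MTR and CTH), against 14.8% of all genes tested. In KELLY the adjusted threshold was reached by 0 of the 10 in edgeR, against 0.00615% of all genes (1 of 16258). An unadjusted p under 0.05 was found for 3 members there and for 2.64% of all genes. SLC7A11, SLC3A2 and CBS were above the threshold of the methods there, against 1.29% of all genes, and the groups of the same 3 did not overlap, against 8.55% of all genes. DESeq2 called 2 members in KELLY, against 0.0817% of the 30593 genes in that fit, which had no low-count filter before it. With limma-voom 0 members were called, against 0.00615% of all genes. The median log2 fold change of the members was 0.31 in KELLY and 0.14 in SK-N-AS, where that of all genes tested was 0.01 and -0.01.

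**Figure D3:**
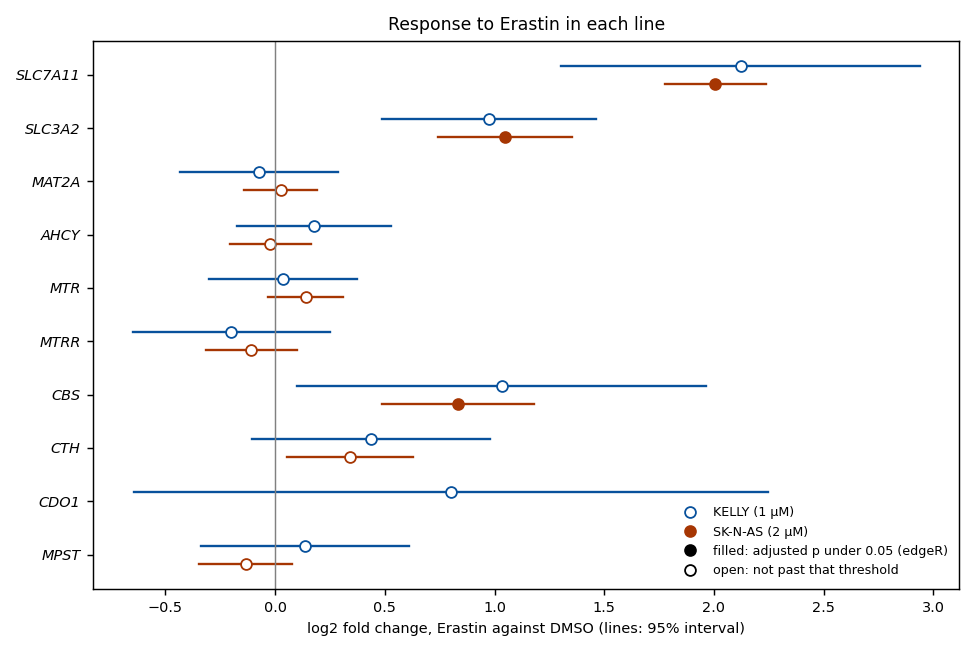
Log2 fold change of each gene with Erastin against DMSO from edgeR, with its 95% interval, in KELLY (blue) and SK-N-AS (brown), where filled points passed an adjusted p under 0.05. The intervals of SLC7A11 (1.78 to 2.24) and SLC3A2 (0.74 to 1.35) in SK-N-AS lay inside the wider KELLY intervals, and CDO1 has no SK-N-AS point because it was not tested there.

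Whether the response differed between the lines was tested as the interaction of line and treatment over all 12 samples, as SK-N-AS minus KELLY. None of the 10 members passed in edgeR or in any of the 22 alternatives, DESeq2 and limma-voom among them, and 0.00548% of all genes tested (1 of 18239) did. The unadjusted p was under 0.05 for 4.25% of all genes and for 1 member, CDO1, whose difference was -2.04 (SE 0.80, adjusted p 0.811 from edgeR) at 3 to 19 counts per library. For SLC7A11 the difference was -0.12 with a 95% interval of -0.95 to 0.70, for SLC3A2 0.07 (-0.53 to 0.67), for CBS -0.20 (-1.23 to 0.82) and for CTH -0.11 (-0.68 to 0.47). With the GC trend removed the difference was -0.43 (SE 0.14, adjusted p 0.415 from edgeR) for SLC7A11 and 0.40 (SE 0.14, adjusted p 0.495 from edgeR) for SLC3A2, both larger than as counted and neither past the threshold. The median difference of the members was -0.12 and that of all genes -0.01. A difference of 1 log2 unit lay inside the interval of CBS, and the doses were not the same.

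The control levels of the members differed between the lines. With DMSO, 7 of the 10 passed an adjusted p under 0.05 between SK-N-AS and KELLY, and 61.3% of all genes tested did, so that the share of the members was near that of all genes. Of these, 2 members were higher in SK-N-AS (30.3% of all genes) and 5 were lower (30.9%). The groups did not overlap for the same 7, against 66.3% of all genes, and the median log2 difference of the members was -0.40, that of all genes -0.02. SLC7A11 was 2.25-fold higher in SK-N-AS, at 53.5 ± 5.55 against 23.5 ± 7.58 CPM (SD, n = 3), a log2 difference of 1.17 (SE 0.23, adjusted p 0.00222 from edgeR). SLC3A2, its partner, went the other way, at 76.7 ± 14.9 CPM in SK-N-AS and 121 ± 18.2 CPM in KELLY (log2 difference -0.67, SE 0.18, adjusted p 0.0115 from edgeR).

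MTR was the other member higher in SK-N-AS, with 166, 160 and 173 CPM against 113, 106 and 117 CPM in KELLY (log2 difference 0.55, SE 0.12, adjusted p 0.00339 from edgeR). Its reactivating partner MTRR was lower there, with 38.7, 40.9 and 44.6 CPM against 61.7, 50.6 and 56.8 CPM (-0.46, SE 0.14, adjusted p 0.0214 from edgeR), a call that held in 12 of 17 alternatives. MPST showed the widest gap toward KELLY, with 55.1, 50.4 and 46.3 CPM in SK-N-AS and 84.3, 135 and 113 CPM in KELLY (-1.14, SE 0.19, adjusted p 0.000724 from edgeR). KELLY DMSO replicate 1, the library leaning most to GC-poor genes, gave the lowest KELLY value of this GC-rich gene. CBS was lower in SK-N-AS as well (-0.80, SE 0.15, adjusted p 0.00188 from edgeR), and AHCY had 277, 276 and 243 CPM in SK-N-AS against 321, 424 and 385 CPM in KELLY (-0.52, SE 0.14, adjusted p 0.0109 from edgeR). AHCY lost this call without SK-N-AS DMSO replicate 3 (adjusted p 0.0562), and CBS with all 12 samples in 1 edgeR fit (adjusted p 0.0599). MAT2A (0.11, 95% interval -0.17 to 0.40), CTH (-0.34, -0.81 to 0.14) and CDO1 (0.51, -0.62 to 1.64) did not pass. CTH passed once each library's GC trend was taken out, at -0.38 (SE 0.15, adjusted p 0.0449 from edgeR), in a fit where 74.7% of all genes passed.

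Levels of different genes were compared per kilobase of the canonical transcript. The order below depends on that length, since counts are per gene. All exons of MPST, for example, cover 6759 bases and its canonical transcript 1350. An order by exon length was not computed. The place of CBS would also be too low if reads matching CBSL were left uncounted. In KELLY with DMSO the order ran from AHCY (175 ± 24.1 CPM per kilobase, SD, n = 3) through MAT2A (108 ± 10.5), MPST (82.0 ± 19.0), SLC3A2 (64.4 ± 9.68), CBS (22.8 ± 2.77), MTRR (17.4 ± 1.73), MTR (10.6 ± 0.50), CTH (3.97 ± 0.91) and SLC7A11 (2.44 ± 0.79) to CDO1 (0.20 ± 0.11). The samples of MAT2A and MPST, of MPST and SLC3A2, and of CTH and SLC7A11 overlapped, and the other neighbours did not. In SK-N-AS with DMSO, MTR (15.8 ± 0.63) stood above CBS (13.2 ± 1.20) and MTRR (12.8 ± 0.91), and SLC7A11 (5.55 ± 0.58) above CTH (3.17 ± 0.14). There AHCY and MAT2A, SLC3A2 and MPST, and CBS and MTRR overlapped. With Erastin the mean of SLC7A11 stood above that of CTH in KELLY (10.6 ± 4.04 against 5.37 ± 1.00), with overlapping samples, and above that of MTR in SK-N-AS (22.1 ± 2.18 against 17.2 ± 0.64), with none.

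**Figure D4:**
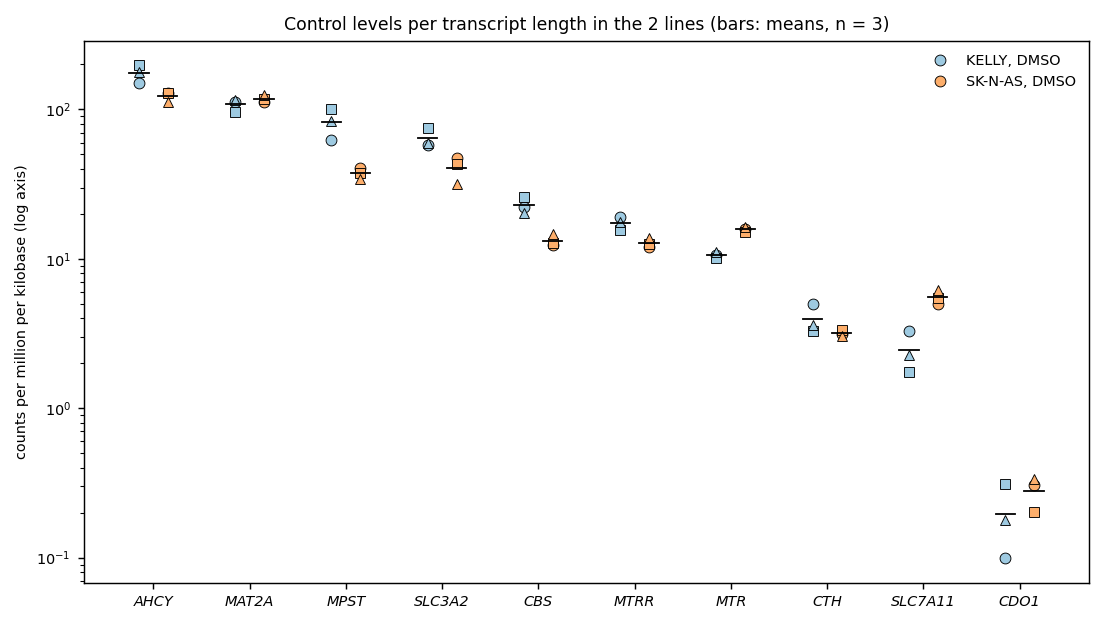
Control levels of the 10 genes in CPM per kilobase of transcript on a log axis, with the 3 DMSO samples of KELLY in blue and of SK-N-AS in orange and bars at the means. SLC7A11 and MTR lay higher in SK-N-AS and MPST, SLC3A2, AHCY, CBS and MTRR lower, with no overlap between the lines.

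A wider list of 39 genes of sulfur amino acid metabolism surrounded the members. With Erastin, 2 of its 31 genes tested in SK-N-AS passed, both higher, against 0.659% of all genes. In KELLY none of 27 passed in edgeR, against 0.00615% of all genes, and 1 (SLC7A5) had an unadjusted p under 0.05, against 2.64%. SLC7A5, the large neutral amino acid carrier that also pairs with SLC3A2, had 119, 98.0 and 83.0 CPM with DMSO and 245, 352 and 277 CPM with Erastin in SK-N-AS. Its groups were well apart (log2 fold change 1.55, SE 0.15, adjusted p 0.000211 from edgeR). In KELLY it had 245, 426 and 375 CPM with DMSO and 980.1, 664 and 755 CPM with Erastin (1.20, SE 0.24, adjusted p 0.656 from edgeR), and 0.88 with the GC trend removed (adjusted p 0.00235 from edgeR). GOT1, an aspartate aminotransferase that also acts on a product of cysteine oxidation, rose in SK-N-AS by 0.52 on the log2 scale (SE 0.10, adjusted p 0.0279 from edgeR). GOT1 did not pass without DMSO replicate 2 (adjusted p 0.102), without Erastin replicate 1, 2 or 3 (0.105, 0.221 and 0.136), or with all 12 samples in 1 edgeR fit (0.18). In KELLY its difference was 0.19 (SE 0.14). All 8 genes of methionine salvage and the polyamine branch had log2 fold changes below 0 in SK-N-AS, with a median of -0.15, and none passed in edgeR or had an unadjusted p under 0.05, which 8.77% of all genes had. The median of the 31 genes was -0.05 there and that of the 27 in KELLY was 0.01, beside -0.01 and 0.01 over all genes.

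Between the controls of the lines, 13 of 31 listed genes were higher in SK-N-AS and 7 lower, against 30.3% and 30.9% of all genes, so that the share called was near that of all genes. Their median log2 difference was 0.31 and that of all genes -0.02. BHMT2, which remethylates homocysteine with a methyl donor other than folate, had 418, 374 and 427 counts in the SK-N-AS controls and 0 counts in all 6 KELLY libraries. Against 3 counts per KELLY library it was at least 135-fold higher in SK-N-AS (adjusted p 1.28e-06 from edgeR). SLC7A8, a neutral amino acid carrier that pairs with SLC3A2, had 45, 55 and 28 counts in those controls against 0 in each KELLY control, at least 14.2-fold higher (adjusted p 0.000197 from edgeR). GNMT, which uses up S-adenosylmethionine, had 40, 20 and 23 counts against 0, 4 and 0 (adjusted p 0.00208 from edgeR). ADO, an oxidase of cysteamine, was higher in SK-N-AS by 0.88 on the log2 scale (SE 0.14, adjusted p 0.000488 from edgeR). SLC7A5 (-1.81, SE 0.23, adjusted p 0.000138 from edgeR), SLC7A6 (-1.06, SE 0.15, 0.000321) and GOT1 (-0.57, SE 0.14, 0.00677) were lower there. MAT1A, the liver form of the MAT2A enzyme, and SQOR, which oxidizes sulfide in mitochondria, reached at most 1 and 2 counts in KELLY and 11 each in SK-N-AS. The carriers SLC7A9 and SLC7A10 reached at most 5 counts in any library.

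**Figure D5:**
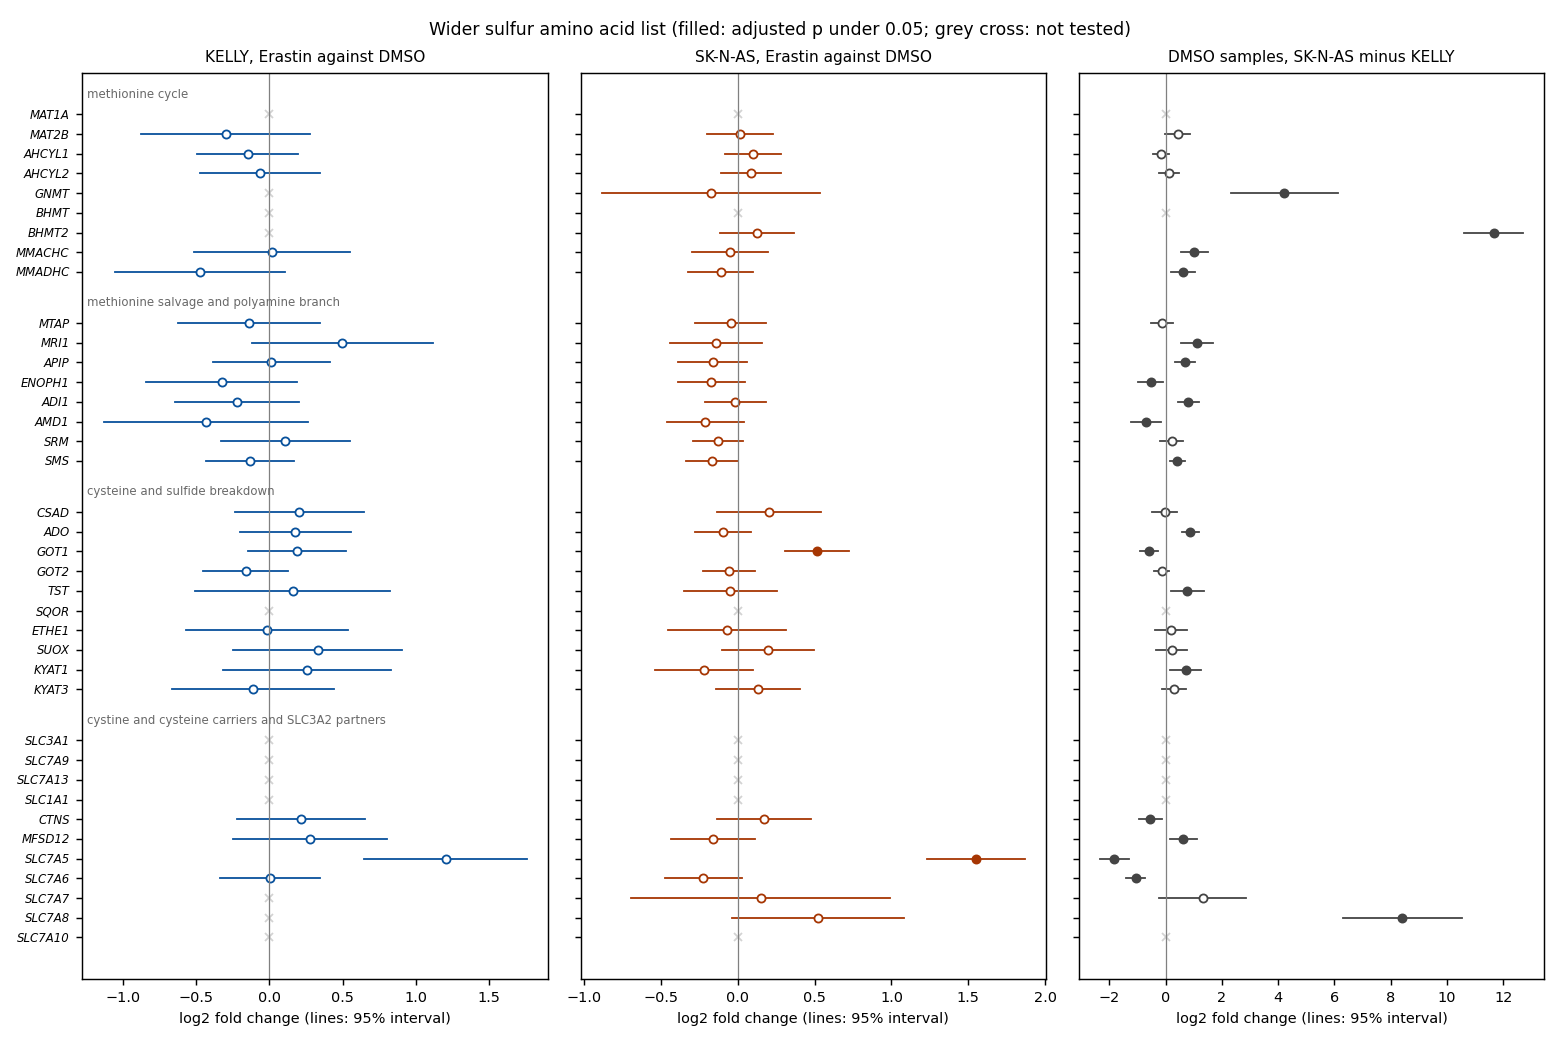
Log2 fold changes with 95% intervals of 38 of the 39 genes of the wider list, grouped by role, for Erastin in KELLY, Erastin in SK-N-AS and the controls of SK-N-AS against KELLY, with filled points past an adjusted p under 0.05 and grey crosses for genes not tested. SLC7A5 and GOT1 are the filled points with Erastin in SK-N-AS, KELLY has none, and the fitted values of BHMT2, SLC7A8 and GNMT in the right panel rest on KELLY libraries at or near 0 counts.

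The genes whose pattern over the 12 samples lay nearest to SLC7A11 were sought among 12511 genes, by the root mean square difference in log2 CPM centred within each line. They were INHBE (0.43), ASNS (0.46), ULBP1 (0.46), PSAT1 (0.48) and SLC1A4 (0.51), against a median of 1.09 over all genes. A small constant was added to CPM before the log, which shrinks differences at low counts. In SK-N-AS their log2 fold changes with Erastin were 2.61, 2.28, 4.58, 2.025 and 2.14 in that order, against 2.01 for SLC7A11. In KELLY they were 2.84, 1.61, 1.385, 0.80 and 1.16, against 2.12. A near place in this list therefore does not mean an equal fold change. Among the members SLC3A2 came nearest (rank 22), followed by CTH (62) and CBS (89), and MTR ranked 1114. The points share libraries and their GC trends, and this likeness is a description with no test.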

How the data were processed

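RNA-seq of KELLY and SK-N-AS cells was analysed from the gene tables deposited by the authors, which hold raw counts per gene without normalization. Per the labels and the study's methods, paired-end reads were aligned by the authors to GRCh38, who used the GENCODE release 29 annotation and counted with HTSeq. Their notes also name Trimmomatic and DESeq2. The settings for strand and for reads with several matches are not given in the sources used here. Reads of near-identical or overlapping genes may be misassigned or left uncounted. Groups came from the sample labels, and no 2 libraries of the same group were copies (chi-square per gene between 4.7 and 134.1). Pairs across groups were not checked in this way.

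Each comparison was fitted in R 4.3.3 with edgeR 4.0.16 (filterByExpr, TMM, quasi-likelihood test), with p-values adjusted by Benjamini-Hochberg over all genes tested. The CPM shown use TMM over the 12 libraries. SE is the log2 fold change divided by the root of F. GC content and transcript length were those of the canonical transcript in GENCODE release 44 (36512 names matched by symbol, 868 by an older symbol, of 57167). The GC correction used a loess trend per library (span 0.5, degree 2) as an offset. Alternatives included DESeq2 1.42.0 and limma 3.58.1 (voom). Summing CBS and CBSL was an alternative added after seeing the data. The edgeR fits, with and without the replicate block and the GC correction, were tried on simulated data with known changes and no GC trend. DESeq2 and limma-voom were not tried on them.

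All members were named. From the wider list, the genes named were, per comparison and direction, up to 4 called genes with the smallest p, and up to 2 per role group at 3 counts or fewer in every library of 1 line (those highest in the other line, an order chosen after seeing the values). Of these, 1 gene named by this rule is not reported here. Members and lists were chosen with earlier results of these data known. Fewer cells or less RNA per cell cannot be told apart in bulk RNA.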

Additional observations from a re-analysis of the deposited data

How the results depend on the processing

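In KELLY, where edgeR called 0 members with Erastin, DESeq2 called 2 (SLC7A11 and SLC3A2), and 1 (SLC7A11) was called without a filter on low counts, with the GC correction, with the replicate block and GC correction together, and with all 12 samples in 1 fit. In SK-N-AS 3 members were called, and 1 (SLC7A11) with all 12 samples in 1 fit. The cause of these shifts was not tested. The fits with the replicate block called 0 members in KELLY, 0 for the interaction and 3 in SK-N-AS, where 1.91% of all genes passed. Between the controls they called 6 (MTRR was lost, adjusted p 0.0879 from edgeR), and 52.9% of all genes passed there. Deviations of same-numbered samples from their group means correlated at -0.69, -0.72 and -0.10 in KELLY and -0.06, 0.14 and 0.27 in SK-N-AS. These deviations carry the GC trend of each library, so they cannot tell whether the replicate numbers pair the samples. Over all genes tested in SK-N-AS the calls went from 106 to 308 with the block, 1132 with the GC correction, 1874 with both, 203 with DESeq2, 265 without a filter and 46 with all 12 samples in 1 fit. They were 53 without SK-N-AS DMSO replicate 2 and 855 without DMSO replicate 3, the lowest and highest with 1 library left out. In KELLY they went from 1 to 25 with DESeq2, 19 without a filter, 33 with the GC correction, 5 with block and GC correction, 17 with all 12 samples and 0 with the block, and ran from 0 to 2 with 1 library left out. For the interaction they went from 1 to 12 with DESeq2, 8 without a filter, 22 with the GC correction, 3 with block and GC correction and 0 with the block, and reached 3 without KELLY DMSO replicate 2.

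Directions that turned were all of differences that had not passed. With the GC correction AHCY in KELLY was -0.01 and MPST -0.28 (-0.02 and -0.30 with the block as well). The interaction was then 0.01 for AHCY, -0.06 for MTRR, 0.22 for CBS and 0.24 for MPST (0.01, -0.06, 0.26 and 0.26 with the block). With 1 library left out, the KELLY log2 fold change ran from -0.02 to 0.30 for MPST, -0.05 to 0.10 for MTR and -0.15 to 0.03 for MAT2A, and the SK-N-AS one from -0.01 to 0.07 for MAT2A and -0.08 to 0.01 for AHCY. The interaction ran from -0.08 to 0.26 for SLC3A2, -0.40 to 0.14 for SLC7A11, -0.31 to 0.06 for CTH, -0.02 to 0.17 for MAT2A, -0.07 to 0.21 for MTRR and -0.49 to 0.44 for CBS. Of all recomputed fold changes of members and named genes, 852 kept direction and side of the threshold, 21 lost and 11 gained the call, and 31 turned. SLC7A11 in SK-N-AS passed in all 17 alternatives. CDO1 gave no value with at least 10 counts in every sample. With 3 samples a group and the GC trends above, depth limits mainly CDO1.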
